A study of Mus musculus with 10 samples.

Results

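Genes for enzymes that modify foreign and endogenous lipophilic compounds were examined in brain endothelial cells (BECs) of APP/PS1 mice and of age-matched control mice. The group was defined by gene symbol, but it was chosen with earlier results of these data known. It took in the protein-coding rows of the deposited table whose mouse symbol (GENCODE M21) begins with Cyp and a digit (Cyp51 left out), Gst, Mgst, Ugt1, Ugt2, Sult, Fmo, Aldh or Ephx. This rule gave 58 genes of the 14106 in the table. They were 19 cytochrome P450 genes (Cyp), 4 flavin-containing monooxygenases (Fmo), 13 aldehyde dehydrogenases (Aldh), 3 epoxide hydrolases (Ephx), 14 glutathione S-transferases (Gst), 3 microsomal glutathione S-transferases (Mgst) and 2 sulfotransferases (Sult). The families follow the symbols, and whether each gene encodes an enzyme with the activity of its family was not checked. No UDP-glucuronosyltransferase (Ugt) row was in the table, and the other annotated genes with these prefixes were not analysed here.

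RNA was sequenced in 10 libraries of BECs from the cortex of female mice that were 1 year old. The 5 APP/PS1 libraries came from mice that carry transgenes for amyloid precursor protein with the Swedish mutation and for presenilin 1 with the E9 deletion, and that deposit Aβ in the brain. The 5 control libraries came from age-matched mice of the same C3H/BL6 background, labelled WT, and no treatment is listed for either group. BECs were enriched with CD31 microbeads after myelin removal, and the sources used here name neither the transgene promoter nor whether a library is 1 mouse or a pool, so each SD and p value measures the spread between libraries. Levels are log2 CPM (counts scaled to an effective library size, after the authors' batch correction), and the adjusted counts behind them summed to between 22371766 and 126686149 per library, the replicate 1 libraries being the smallest. The effective sizes were from 0.964 (APP/PS1 replicate 4) to 1.034 (control replicate 4) times these sums. Each control library was compared with the APP/PS1 library of the same replicate number, since the study's supplement shows 5 batches of 1 library of each group, although the labels put replicates 4 and 5 in the same batch.

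Xenobiotic metabolism is usually described in phases. Phase I enzymes (cytochrome P450s, flavin-containing monooxygenases, aldehyde dehydrogenases and epoxide hydrolases) oxidise or hydrolyse a compound, and phase II enzymes (glutathione S-transferases, sulfotransferases and glucuronosyltransferases) attach a polar group to it so that it can be exported. Many of these enzymes also act on endogenous fatty acids, sterols and retinoids, and in brain microvessels they form a metabolic layer of the blood–brain barrier beside the tight junctions and efflux pumps.

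The levels of the 58 genes spanned a wide range, and a few genes made up much of the total. Summed over all of them, the control libraries held 2543 ± 80.6 CPM (SD, n = 5) and the APP/PS1 libraries 2433 ± 75.1 CPM, with ranges of 2442 to 2652 and 2333 to 2534 that overlapped. For comparisons between genes, the level was divided by the exon length and expressed as log2 CPM per kilobase (mean of the 10 libraries). On this scale Ephx1, the microsomal epoxide hydrolase, was highest at 7.39 ± 0.047 (SD, n = 10 libraries), followed by mitochondrial aldehyde dehydrogenase Aldh2 at 6.30 ± 0.062, the flavin monooxygenase Fmo2 at 6.02 ± 0.16 and the mu class transferase Gstm1 at 5.76 ± 0.079. Together these 4 genes held 47.6% of the summed level per length of all 58. Next came Sult1a1 at 5.72, a phenol sulfotransferase, then Cyp2d22 at 5.59, the P450 with the highest level, Aldh9a1 at 4.97, Fmo1 at 4.79, Gstm7 at 4.62 and Aldh3a2 at 3.99. Gstm1 and Sult1a1, and Sult1a1 and Cyp2d22, lay closer together than the SD of Sult1a1 (0.22), so the place of Sult1a1 among them is not resolved. At the low end Cyp4f15 was at −2.59 and Gsta3 at −2.30 log2 CPM per kilobase.

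**Figure D1:**
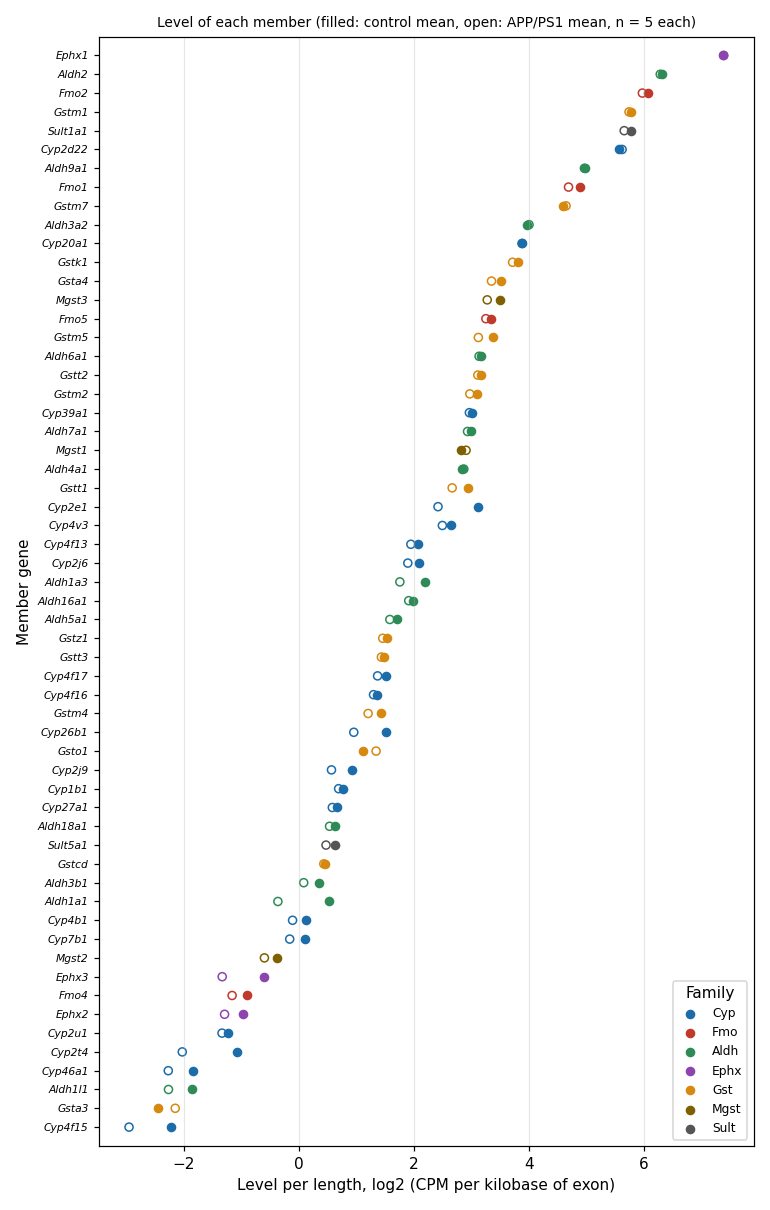
Level of each of the 58 genes on the x axis as log2 CPM per kilobase of exon, with the genes on the y axis in order of level; filled points are control means and open points APP/PS1 means (n = 5 libraries each), coloured by family. Ephx1 leads at 7.39 and Cyp4f15 is lowest at −2.59, and in the upper part of the plot the filled and open points nearly coincide.

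Some of these values share sequence with other genes. Of the 50-base words of Gstm1, 18.9% also occur in another transcript, mainly of the pseudogene Gstm2-ps1, and for Cyp4f16 the share was 17.4%, mainly with its paralog Cyp4f37. Other genes overlap 32.5% of the exonic bases of Aldh4a1, and whether the counting used strand is not stated. The levels of these genes are therefore less certain than those of Fmo2 or Aldh9a1, which shared no such word.

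The comparison of APP/PS1 with control BECs asked whether the enzymes differ in a model of Aβ amyloidosis. No single gene of the group passed the threshold, but most differed in 1 direction. Of the 58 genes, 50 had a lower mean in APP/PS1 BECs (86.2%, against 51.8% of all 14106 genes), and the median difference was −0.12 log2 units for the group and −0.0038 for all genes. By limma with the replicate pair as a term and Benjamini-Hochberg adjustment over 14106 genes, 0 of the 58 genes had an adjusted p under 0.05, and in the whole table the share was 0.00% as well. The smallest adjusted p in the group was 0.418. At an unadjusted p under 0.05, 11 genes were lower (19.0%, against 5.91% of all genes) and 0 were higher (against 2.13%). The 11 genes were Aldh3b1, Aldh1a3, Cyp2j9, Gstt1, Gstm4, Fmo4, Mgst3, Aldh1a1, Ephx3, Gstm5 and Cyp2e1. Limma-voom called 0 genes at the adjusted threshold and 11 at the unadjusted one (19.0%, against 7.27% of all genes). Of these, 10 were shared with the 11 above, Fmo1 taking the place of Gstm4. Summed markers of mural cells (pericytes and smooth muscle) were also lower, at 271 to 521 CPM in APP/PS1 against 529 to 881 CPM in control libraries, and their part in these differences was not tested.

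In APP/PS1 BECs, 9 genes were lower in all 5 pairs (15.5%, against 5.00% of all genes), and 0 were higher in all 5 (against 2.99%). They were Aldh3b1, Aldh1a3, Cyp2j9, Gstt1, Gstm4, Fmo4, Mgst3, Ephx3 and Gstk1. In these 9 genes the groups also did not overlap, as in 4.96% of all genes, while 0 of the 58 were higher without overlap (2.91% of all genes). Pair direction and overlap are nearly the same measure here, because the batch correction had set the mean of each pair almost equal. Over all genes the median SD of the 5 pair means was 0.0035, against 0.086 for the deviations from them. With the pair term the model has 4 residual degrees of freedom. Without it 8 are counted, and then 7 of the 58 genes (12.1%) had an adjusted p under 0.05, against 4.59% of all genes (648 of 14106), namely Aldh3b1, Aldh1a3, Cyp2j9, Gstt1, Gstm4, Fmo4 and Gstk1. At an unadjusted p under 0.05 that model gave 19 of the 58 (32.8%), against 21.6% of all genes.

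**Figure D2:**
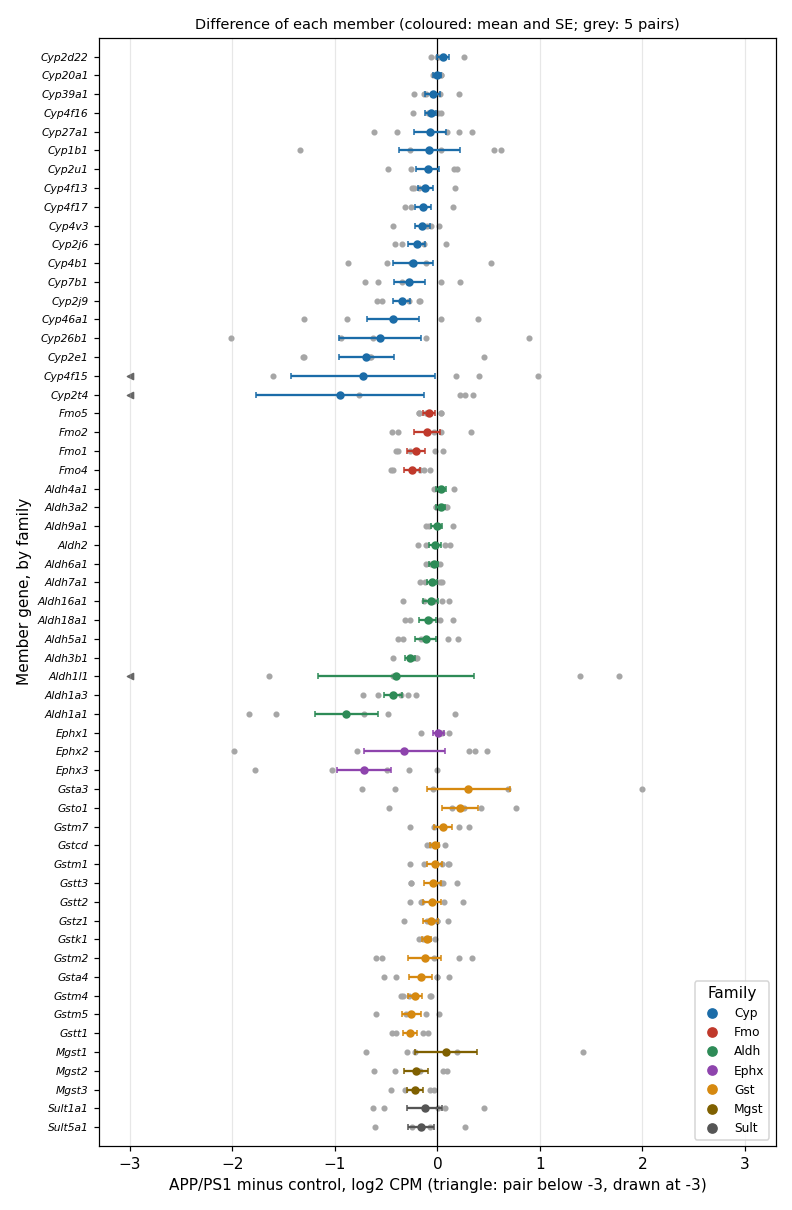
Difference of each of the 58 genes, APP/PS1 minus control, on the x axis in log2 CPM; coloured points and bars are the mean and its SE from limma, grey points the 5 pairs and triangles the 3 pair values below −3, drawn at −3. The means of 50 genes lie left of 0, most of them within 0.5 log2 units, and the widest pair spreads belong to genes of low level such as Cyp2t4, Cyp4f15 and Aldh1l1.

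The size of the difference varied between pairs and with the level of the genes. The median of the 58 genes was −0.25 in pair 1, −0.03 in pair 2, −0.13 in pair 3, −0.05 in pair 4 and −0.13 in pair 5, while the median of all genes stayed between −0.0087 and 0.0014. Pair 1, with the smallest libraries, was thus the farthest from 0. Leaving out pair 2 raised the count at an unadjusted p under 0.05 from 11 to 17, of which 1 was higher, and leaving out pair 3, 4 or 5 lowered it to 6, 6 or 7. The number of genes lower in every remaining pair was 17 without pair 2, when 3 were higher in every pair. Of the 20 genes at or above the median level of all genes (4.29 log2 CPM), 15 had a lower mean, the median difference was −0.04, and 0 had an unadjusted p under 0.05. Of the 38 genes below that level, 35 had a lower mean, the median difference was −0.21, and the 11 genes above were among them (28.9%). Over all genes, 42.5% at or above that level and 61.2% below it had a lower mean, and 1.83% and 9.98% were lower at an unadjusted p under 0.05.

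**Figure D3:**
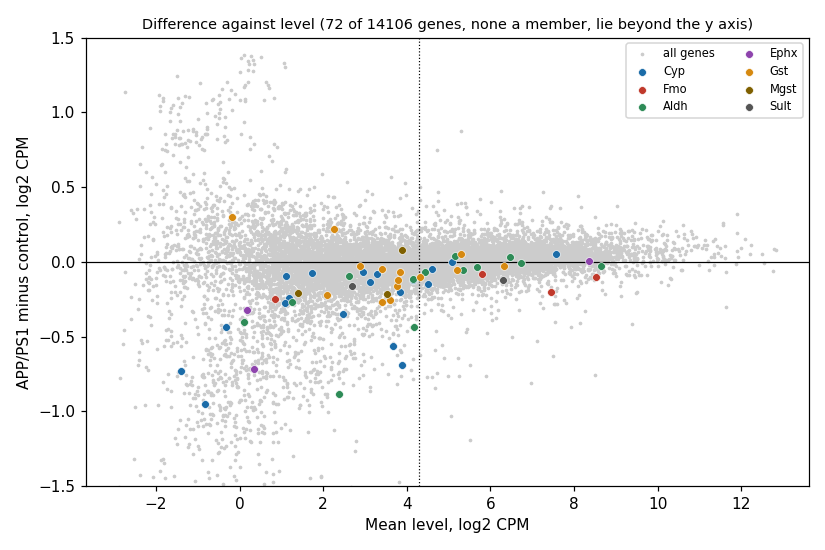
Difference, APP/PS1 minus control in log2 CPM, on the y axis against the mean level in log2 CPM on the x axis for all 14106 genes (grey) and the 58 enzymes (coloured by family); the dotted line is the median level of all genes, 4.29, and 72 genes, none of them an enzyme, lie beyond the y axis. The enzymes right of the line lie close to 0 and those left of it mostly below 0.

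The promoters of 4 genes show the sequence before the start for 3 of the genes lower in all pairs and for Cyp1b1, a standard target of the aryl hydrocarbon receptor. The letters searched were GCGTG, the core bound by that receptor with its partner Arnt, and capitals mark it, as CACGC where it lies on the other strand. The sequences are from RefSeq (GRCm38.p6), printed 5′ to 3′ on the gene's strand, and end where GENCODE places the start of the gene. They lie at chr4:96591579-96591735 (minus strand, Cyp2j9), chr1:167393842-167394091 (minus strand, Mgst3), chr6:42245685-42245934 (plus strand, Gstk1) and chr17:79715062-79715311 (minus strand, Cyp1b1).
Cyp2j9: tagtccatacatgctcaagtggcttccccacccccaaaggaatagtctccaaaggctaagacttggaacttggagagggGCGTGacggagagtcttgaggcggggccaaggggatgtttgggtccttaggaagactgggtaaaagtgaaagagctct
Mgst3: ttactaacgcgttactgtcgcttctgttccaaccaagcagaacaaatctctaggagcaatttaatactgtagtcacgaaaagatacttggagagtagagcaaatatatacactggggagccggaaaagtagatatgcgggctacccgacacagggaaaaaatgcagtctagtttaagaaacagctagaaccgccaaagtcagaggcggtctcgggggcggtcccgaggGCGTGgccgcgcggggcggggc
Gstk1: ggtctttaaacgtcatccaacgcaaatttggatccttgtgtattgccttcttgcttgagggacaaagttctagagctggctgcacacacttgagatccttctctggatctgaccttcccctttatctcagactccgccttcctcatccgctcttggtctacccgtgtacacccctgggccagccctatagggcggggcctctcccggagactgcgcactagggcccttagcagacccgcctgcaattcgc
Cyp1b1: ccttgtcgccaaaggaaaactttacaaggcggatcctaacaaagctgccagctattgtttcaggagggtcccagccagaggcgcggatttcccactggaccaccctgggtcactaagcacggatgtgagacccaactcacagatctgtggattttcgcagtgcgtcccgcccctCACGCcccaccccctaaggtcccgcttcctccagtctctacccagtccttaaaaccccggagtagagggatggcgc
The core stood in the windows of Cyp2j9, Mgst3 and Cyp1b1 and not in that of Gstk1. Of the 58 genes, 46 had a promoter in the table, and 14 of these (30.4%) held GCGTG on either strand in the 250 bases before the RefSeq start, against 45.8% of 9770 promoters searched in the same way. The RefSeq start lay inside the GENCODE gene for 26 of the 46, and for 6 of them, Aldh3a2 and Gstt1 included, the whole window did, so these windows are not all upstream of the GENCODE gene. GCGTG is also a form of the core of the hypoxia response element, so a match does not tell these apart. The antioxidant response element core TGACNNNGC, bound by Nrf2, was in 4 of the 46 (8.70%, against 11.9% of all), and the core of the interferon-stimulated response element in 2 of 46 (4.35%, against 2.50%). Among the 8 of the 9 genes lower in all pairs that had a promoter, 2 held GCGTG, 0 held TGACNNNGC and 1, Gstt1, held the interferon-stimulated core, in a window wholly inside its GENCODE gene. A match describes the letters of the window and is no evidence of binding.

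Among the 19 P450 genes, 18 had a lower mean in APP/PS1 BECs (94.7%, against 51.8% of all genes), with a median difference of −0.15 log2 units. At an unadjusted p under 0.05, 2 of the 19 were lower (10.5%). The share over all genes was 5.91%, and 9.98% over all genes below the median level. The P450s are haem monooxygenases of the endoplasmic reticulum and mitochondria. Cyp2d22, which alone held 44.7% of the level per length of the P450 genes, was the exception in direction. Its control libraries were at 7.53, 7.59, 7.43, 7.57 and 7.56 log2 CPM in replicates 1 to 5 and its APP/PS1 libraries at 7.59, 7.53, 7.69, 7.56 and 7.57. The groups overlapped, and the difference was 0.05 (SE 0.061, adjusted p = 0.878 by limma). Cyp2d22 shared 4.13% of its 50-base words, mainly with its paralog Cyp2d26.

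Cyp2e1, an oxidase of ethanol and other small molecules, differed more, and is described because it is among the 11 genes although it fell outside the rule for named genes. Its control libraries were at 4.52, 3.60, 4.24, 4.24 and 4.52 log2 CPM and its APP/PS1 libraries at 3.20, 4.05, 3.59, 3.59 and 3.23. The difference was −0.69 (SE 0.27, adjusted p = 0.605 by limma), with the APP/PS1 library lower in 4 of 5 pairs and higher in pair 2. Cyp1b1, which oxidises oestrogens and polycyclic aromatic hydrocarbons, ranged from 2.95 to 3.89 log2 CPM in control and from 2.55 to 3.58 in APP/PS1 libraries. Its pairs pointed both ways, from 0.62 in pair 4 to −1.34 in pair 5. Cyp2t4 had the most negative mean difference of the 58 genes, −0.95 (SE 0.82), and it rested on 1 library. The APP/PS1 library of replicate 3 held 0 adjusted counts of it, and without that pair the difference was 0.015.

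The 9 P450 genes of the Cyp2j, Cyp2u and Cyp4 subfamilies, known for the oxidation of fatty acids such as arachidonic acid, all had a lower mean in APP/PS1 BECs, with a median of −0.15. At an unadjusted p under 0.05, 1 was lower (11.1%, against 5.91% of all genes and 9.98% of all genes below the median level). That gene was Cyp2j9 (chr4:96568429-96591578, minus strand, mm10), a brain P450 that oxidises arachidonic acid. Its control libraries were at 2.77, 2.56, 2.75, 2.62 and 2.58 log2 CPM and its APP/PS1 libraries at 2.19, 2.40, 2.21, 2.35 and 2.39. The groups did not overlap, and the difference was −0.35 (SE 0.084, adjusted p = 0.537 by limma). Its neighbour Cyp2j6 (chr4:96516138-96553661) was lower in 4 of 5 pairs, with a difference of −0.20 (SE 0.083). Cyp4f15, the least abundant of the 58 genes, had a difference of −0.73 (SE 0.70) and as few as 1 adjusted count in a library. The 4 sterol P450s (Cyp7b1, Cyp27a1, Cyp39a1 and the neuronal cholesterol 24-hydroxylase Cyp46a1) were all lower in the mean, by 0.05 to 0.43 log2 units, and 0 had an unadjusted p under 0.05.

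Retinoid enzymes were among the genes with the largest differences. Aldh1a1 and Aldh1a3 make retinoic acid from retinaldehyde and Cyp26b1 degrades it. All 3 had a lower mean in APP/PS1 BECs and 2 had an unadjusted p under 0.05, against 51.8% and 5.91% of all genes, though 3 genes are a short list. Over all genes below the median level these shares were 61.2% and 9.98%. Aldh1a3 (chr7:66390890-66427517, minus strand) was at 4.47, 4.33, 4.37, 4.54 and 4.29 log2 CPM in the control libraries and at 3.89, 4.04, 4.01, 3.81 and 4.08 in the APP/PS1 libraries. The groups were separated, with means of 4.40 ± 0.10 and 3.96 ± 0.11 (SD, n = 5) and a difference of −0.43 (SE 0.089, adjusted p = 0.441 by limma). Aldh1a1 was at 3.22, 2.29, 2.67, 2.80 and 3.17 in control and at 1.38, 2.46, 2.19, 2.08 and 1.59 in APP/PS1 libraries. Its difference of −0.89 (SE 0.31, adjusted p = 0.575 by limma) varied from −1.84 in pair 1 to 0.17 in pair 2, so the groups overlapped. Cyp26b1 had a difference of −0.56 (SE 0.40), with pair values from −2.01 to 0.89.

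Aldehyde dehydrogenases oxidise aldehydes that come from lipids, amino acids and amines. Over the family, the retinoid enzymes included, 11 of 13 had a lower mean and the median difference was −0.07. At an unadjusted p under 0.05, 3 were lower (23.1%, against 5.91% of all genes and 9.98% of all genes below the median level). Aldh3b1 (chr19:3913491-3929808, minus strand), an oxidiser of medium and long chain lipid aldehydes, had the smallest p of the 58 genes. Its control libraries were at 1.48, 1.37, 1.36, 1.35 and 1.38 log2 CPM and its APP/PS1 libraries at 1.05, 1.13, 1.15, 1.15 and 1.11. All 5 control values lay above all 5 APP/PS1 values, and the difference was −0.27 (SE 0.053, adjusted p = 0.418 by limma). The gene was weakly expressed, with as few as 45 adjusted counts in a library, and 8.97% of its 50-base words were shared, mainly with its paralog Aldh3b3. Aldh2, which clears acetaldehyde, was at 8.71, 8.66, 8.59, 8.62 and 8.75 in control and at 8.60, 8.64, 8.72, 8.70 and 8.56 in APP/PS1 libraries. Its difference was −0.03 (SE 0.061), that of Aldh9a1 −0.01 (SE 0.055) and that of the fatty aldehyde dehydrogenase Aldh3a2 0.03 (SE 0.043). Aldh1l1, a folate enzyme also used as a marker of astrocytes, had the widest pair spread of the family, from −3.10 to 1.77.

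The 4 flavin-containing monooxygenases, which oxygenate nitrogen and sulfur atoms of drugs and dietary amines, all had lower means in APP/PS1 BECs, with a median of −0.15. Fmo1, Fmo2 and Fmo4 lie side by side on chromosome 1 (chr1:162793188-162898726 from the start of Fmo4 to the end of Fmo2). Fmo2 was at 8.54, 8.50, 8.35, 8.70 and 8.73 log2 CPM in control and at 8.50, 8.53, 8.67, 8.32 and 8.29 in APP/PS1 libraries. These values overlapped widely, and the difference was −0.10 (SE 0.12, adjusted p = 0.886 by limma). For Fmo1 the control values were 7.46, 7.41, 7.59, 7.64 and 7.65 and the APP/PS1 values 7.44, 7.47, 7.32, 7.25 and 7.25, a difference of −0.20 (SE 0.088, adjusted p = 0.653). Fmo4, the least abundant of the family, was at 0.91, 0.94, 0.92, 1.07 and 1.06 in control and at 0.84, 0.77, 0.79, 0.62 and 0.63 in APP/PS1 libraries. Here the groups did not overlap, with a difference of −0.25 (SE 0.077, adjusted p = 0.569 by limma). In all 3 genes the pairs with the largest negative differences were pairs 4 and 5.

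Epoxide hydrolases open reactive epoxides to diols, and the family split by level. Ephx1, with 99.4% of the family's level per length, was at 8.33, 8.43, 8.33, 8.30 and 8.34 log2 CPM in control and at 8.36, 8.27, 8.37, 8.41 and 8.35 in APP/PS1 libraries. The difference was 0.01 (SE 0.054, adjusted p = 0.985 by limma) with a 95% confidence interval from −0.13 to 0.14. Ephx3 was at 1.10, 0.54, 0.65, 0.87 and 0.40 in control and at −0.69, 0.26, 0.15, −0.16 and 0.39 in APP/PS1 libraries. Every APP/PS1 value was below every control value, the closest being the 0.40 and 0.39 of pair 5, and the difference was −0.72 (SE 0.26, adjusted p = 0.594 by limma) on as few as 13 adjusted counts in a library. Ephx2, the soluble hydrolase of fatty acid epoxides, had a difference of −0.32 (SE 0.40) with pairs in both directions.

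Glutathione S-transferases couple electrophiles to glutathione. Of the 14 genes with a Gst symbol, 11 were lower in the mean with a median of −0.06. At an unadjusted p under 0.05, 3 were lower (21.4%, against 5.91% of all genes and 9.98% of all genes below the median level). Gstm1, with 36.3% of the family's level per length, was at 6.38, 6.26, 6.30, 6.26 and 6.44 log2 CPM in control and at 6.25, 6.36, 6.34, 6.38 and 6.18 in APP/PS1 libraries, a difference of −0.03 (SE 0.073). The mu class genes lie together on chromosome 3 and differed among themselves. Gstm7 was 0.05 higher (SE 0.091) with overlapping groups, whereas Gstm4 (chr3:108040408-108044894, minus strand) was at 2.23, 2.12, 2.27, 2.12 and 2.25 in control and at 1.95, 2.05, 1.91, 2.06 and 1.91 in APP/PS1 libraries. The Gstm4 groups did not overlap, and the difference was −0.22 (SE 0.066, adjusted p = 0.563 by limma). Gstm5 was at 3.89, 3.59, 3.76, 3.67 and 3.74 in control and at 3.29, 3.61, 3.45, 3.55 and 3.47 in APP/PS1 libraries. It was lower in 4 of 5 pairs, by 0.25 in the mean (difference −0.25, SE 0.095, adjusted p = 0.597 by limma).

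Gstt1, a theta class transferase that acts on small halogenated compounds, was at 3.55, 3.61, 3.48, 3.46 and 3.63 log2 CPM in control and at 3.28, 3.21, 3.34, 3.37 and 3.19 in APP/PS1 libraries. The groups were separated, with a difference of −0.27 (SE 0.069, adjusted p = 0.537 by limma). The other theta genes, Gstt2 and Gstt3, differed by −0.05 each. Gstk1, a transferase of mitochondria and peroxisomes, was not named by the rule and is given because it was lower in all 5 pairs. Its control libraries were at 4.37, 4.41, 4.37, 4.34 and 4.39 and its APP/PS1 libraries at 4.28, 4.23, 4.28, 4.31 and 4.25, a small difference of −0.10 (SE 0.044, adjusted p = 0.660 by limma). The highest mean differences of the 58 genes were also transferases. Gsta3, at no more than 0.71 log2 CPM in any library, had 0.30 (SE 0.41), which rested on pair 5 at 2.00 and was −0.12 without it. Gsto1, an omega class transferase that reduces dehydroascorbate, had 0.22 (SE 0.17, adjusted p = 0.835) and was higher in 4 of 5 pairs.

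The membrane-bound transferases and the sulfotransferases included 1 gene that was lower in all pairs. Mgst3, a microsomal transferase and peroxidase, was at 3.74, 3.55, 3.63, 3.54 and 3.68 log2 CPM in control and at 3.29, 3.48, 3.41, 3.51 and 3.36 in APP/PS1 libraries. The groups did not overlap, and the difference was −0.22 (SE 0.075, adjusted p = 0.575 by limma). Mgst1 differed by 0.08 (SE 0.30), with a pair 5 value of 1.42 against −0.70 in pair 1. Sult1a1, with 97.3% of the level per length of the 2 sulfotransferases, was at 6.61, 6.07, 6.29, 6.33 and 6.57 in control and at 5.98, 6.52, 6.36, 6.33 and 6.05 in APP/PS1 libraries. Its groups overlapped, with a difference of −0.12 (SE 0.17, adjusted p = 0.900 by limma).

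**Figure D4:**
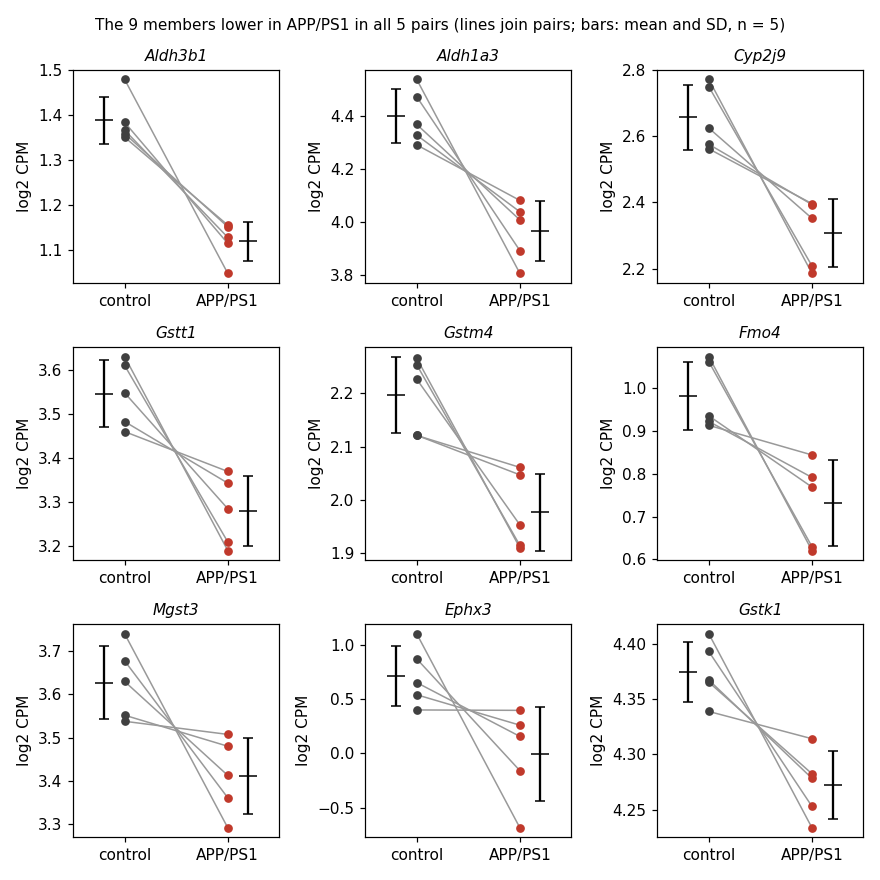
Level in log2 CPM on the y axis in each library of the 9 genes that were lower in APP/PS1 BECs in all 5 pairs, with control libraries in grey and APP/PS1 libraries in red; lines join the pairs and bars beside the points are the mean and SD (n = 5). The lines cross near 1 point in each panel because the pair means had been set almost equal, and the smallest pair difference is that of Ephx3 in pair 5.

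Genes that sense xenobiotics or supply the enzymes with electrons and cofactors were followed as a separate list of 43, of which 36 were in the table. Of these, 21 were lower and 15 higher, with a median of −0.02, and 0 passed the adjusted threshold. The receptors and sensors (Ahr, Arnt, Nfe2l2, Keap1 and others) had 3 lower and 6 higher of 9, and 0 had an unadjusted p under 0.05. The aryl hydrocarbon receptor Ahr differed by −0.18 (SE 0.096) and Nfe2l2, which encodes Nrf2, by 0.12 (SE 0.10). Among the electron donors, 6 of 7 were lower, with a median of −0.06, and Por, the P450 reductase, differed by −0.09 (SE 0.080). The Nrf2 targets had a median of −0.02 over 4 genes, with 2 lower and 2 higher. Over the 36 genes, 4 were lower at an unadjusted p under 0.05, against 5.91% of all genes, and 1 was higher, against 2.13%.

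These 5 partner genes were spread over several functions. Slc7a11, the cystine transporter that feeds glutathione synthesis, averaged 3.17 ± 0.16 log2 CPM in the control group and 2.72 ± 0.15 in the APP/PS1 group (SD, n = 5), a difference of −0.44 (SE 0.12, adjusted p = 0.537 by limma). Papss2, a synthase of the sulfate donor for sulfotransferases, was higher by 0.41 (SE 0.14, adjusted p = 0.571 by limma). The methyltransferase Tpmt differed by −0.34 (SE 0.12), the acetyltransferase Nat2 by −0.22 (SE 0.086) and the carbonyl reductase Cbr3 by −0.16 (SE 0.064), each lower in 4 of 5 pairs. All 7 measured genes of this last list of conjugation and reduction enzymes had a lower mean, with a median of −0.16. Gclc, a subunit of the enzyme for the first step of glutathione synthesis, and Gsr, the reductase that regenerates glutathione, were higher in all 5 pairs, by 0.08 (SE 0.044) and 0.05 (SE 0.042), and were singled out after their values were seen. They were 2 of the 36 genes, against 2.99% of all genes, and 0 of the 36 were lower in all 5 pairs, against 5.00%.

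Markers of other brain cells also differed between the groups. In bulk samples, fewer cells of a type and less RNA per cell cannot be told apart. All 6 endothelial markers were present, at 8.89 log2 CPM or more in control means, and their sum ranged from 6057 to 6382 CPM in control and from 6137 to 6449 in APP/PS1 libraries. The 6 mural cell markers all had lower means in APP/PS1 BECs (median −0.75), and their sum ranged from 529 to 881 CPM in control and from 271 to 521 in APP/PS1 libraries, without overlap. The 3 fibroblast markers in the table, of 5 listed, all had lower means (median −0.66), with sums of 6.80 to 7.99 against 4.74 to 5.52 CPM. The 3 markers of choroid plexus and ependyma in the table, of 5 listed, had a median of −1.03 and sums of 41.0 to 79.1 against 15.4 to 39.97 CPM. For oligodendrocytes 5 of 5 measured markers were lower (6 listed, median −2.39, sums of 35.5 to 269 against 30.4 to 137 CPM), and Mag had 0 adjusted counts in 1 APP/PS1 library. For astrocytes 5 of 6 were lower (median −0.98), and the sums of all 6, 168 to 205 and 170 to 210 CPM, overlapped. These sums rest mainly on Gja1, with a control mean of 7.09 log2 CPM, the marker that was higher (0.27, SE 0.13). All 4 markers of oligodendrocyte precursors were lower, with a median of −0.78 and sums of 23.0 to 36.4 against 14.0 to 23.5 CPM. Of the microglia markers, 3 of 5 measured were lower (6 listed, median −0.16, sums of 8.82 to 14.9 against 7.74 to 13.5 CPM). Neurons were represented by 2 of 6 listed markers, 1 lower and 1 higher. Snap25 differed by −1.97 (SE 0.51), on as few as 4 adjusted counts in a library. Stmn2 differed by 0.02 (SE 0.10), with a control mean of 6.65 log2 CPM against 0.45 for Snap25. The sums of 89.0 to 112.1 against 92.4 to 116.5 CPM therefore rest mainly on Stmn2. The 3 erythroid markers had lower means (median −1.12), with pairs in both directions and sums of 26.2 to 214 against 12.9 to 135 CPM. None of these markers passed the adjusted threshold, and neither did any other gene. At an unadjusted p under 0.05 by limma, 6 of 6 mural, 3 of 3 choroid plexus and ependyma and 3 of 4 precursor markers were lower. So were 2 of 5 oligodendrocyte, 2 of 6 astrocyte, 1 of 3 fibroblast and 1 of 2 neuron markers, against 5.91% of all genes. Of the endothelial, microglia and erythroid markers 0 were lower at that threshold, and 0 markers of any list were higher. The part of the markers in the differences of the enzymes was not tested.

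The pairs can be set side by side for the enzymes and the markers. In pair 2, where the median of the enzymes was −0.03, the oligodendrocyte and astrocyte medians were above 0, at 1.66 and 0.36, and Aldh1a1, Cyp2e1 and Gstm5 were higher in the APP/PS1 library. In pair 1, where the enzymes were at −0.25, the mural median was −1.31, the astrocyte median −2.29 and the oligodendrocyte median −4.56. In pair 4 the mural median of −1.39 and the oligodendrocyte median of −4.86 were the lowest of the 5 pairs, while the enzymes were at −0.05. In pair 3, where the enzymes were at −0.13, the mural median was −0.68, the astrocyte median −1.735 and the oligodendrocyte median −1.845. In pair 5 the mural median was −0.08, the astrocyte median −0.20 and the oligodendrocyte median −2.365, while the enzymes were at −0.13. Fmo4, Gstt1 and Gstm4 were at −0.43, −0.44 and −0.34 in pair 5, and Aldh1a3 and Ephx3 at −0.21 and −0.0036. In pair 4 Fmo4, Gstt1 and Gstm4 were at −0.45, −0.09 and −0.06, and Aldh1a3 and Ephx3 at −0.73 and −1.03. These genes were picked after their values were seen, and how they relate to the markers was not tested.

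**Figure D5:**
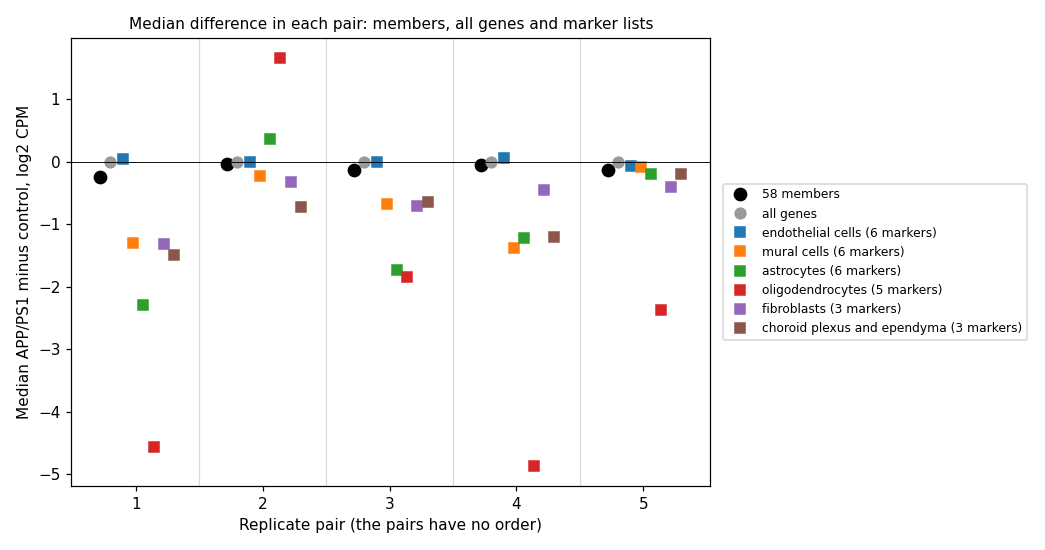
Median difference, APP/PS1 minus control in log2 CPM, on the y axis in each of the 5 replicate pairs on the x axis for the 58 enzymes (black), all genes (grey) and 6 lists of cell type markers (squares). The enzymes lie between −0.25 and −0.03, all genes and endothelial markers near 0, and the mural, fibroblast, and choroid plexus and ependyma markers below 0 in all 5 pairs.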

How the data were processed

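RNA of BECs was sequenced in 10 libraries, 5 per group. The methods of the study name STAR for alignment to mm10, HTSeq-count for gene counts, edgeR for the expression filter and log CPM, and ComBat for batch correction, all run by the authors. Versions are not given in the sources used here. The deposited values are log2 CPM of 14106 genes, and 100% of them converted back to whole adjusted counts within 0.05, with a mean prior count of 3. Because these adjusted counts are no longer reads, intervals for counting error were not given, and precision rests on the spread between libraries. A correction of log CPM would not in general leave whole numbers, so the correction used is not settled here.

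Groups were taken from the genotype labels. Libraries were paired by replicate number, because the study's supplement shows 5 batches of 1 library per group (the labels give 4, replicates 4 and 5 sharing 1). The correction had already set the pair means nearly equal, so the correlation within pairs has a fixed sign and could not check the pairing. Limma 3.58.1 in R 4.3.3 (lmFit and eBayes) was fitted to the log2 values of all genes with genotype and pair as terms. Adjustment over all genes followed Benjamini and Hochberg, and an adjusted p under 0.05 was the threshold. The fit was tested on simulated data.

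Symbols, positions and exon lengths came from GENCODE M21 (GRCm38, equal to mm10), which held 14106 of 14106 identifiers. The genes, gene lists, roles and tests were chosen with earlier results of these data known. Named genes were the one with the highest level per length in each family, the 10 highest of all, the 10 with the smallest p, and the 3 largest differences in each direction, 25 in all. Others named were chosen after their values were seen. Alternatives were no pair term, the 4 label batches, median scaling, prior counts of 0.125 and 10, a level filter (mean of 1 log2 CPM or more), eBayes with a trend, limma-voom, a threshold of 0.10, each pair left out, and, added after seeing the data, library totals and median-of-ratios size factors.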

Additional observations from a re-analysis of the deposited data

Results flagged for a closer look

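In the 25 named genes, 50 sets of 5 libraries were searched for 1 library far from the others of its group (gap to the nearest library divided by the range, with a critical value of 0.71), and 2 were found. Chance gives about 1 in 20 such sets, or 2.5 of 50. For Cyp2t4 in APP/PS1 BECs the ratio was 0.883. The library of replicate 3 was at −4.85 log2 CPM, with 0 adjusted counts, and the other 4 lay between −0.79 and −0.26. For Aldh3b1 in control BECs the ratio was 0.743. The library of replicate 1 was at 1.48 log2 CPM and the other 4 between 1.35 and 1.38.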

How the results depend on the processing

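Without the replicate pair (block) term, 7 of the 58 genes (12.1%, against 648 or 4.59% of all genes) passed the adjusted threshold instead of 0, and 19 (32.8%, against 21.6%) instead of 11 had an unadjusted p under 0.05. Since the batch correction had set the pair means nearly equal, that model counts 8 residual degrees of freedom where 4 remain. With the 4 label batches the counts were 0 and 14 (24.1%, against 11.4% of all genes at the unadjusted threshold). The other alternatives gave 0 genes at the adjusted threshold, at 0.10 too, and each gave more lower than higher means. With 1 pair left out, the count at an unadjusted p under 0.05 ranged from 6 to 17 (10.3% to 29.3%, against 5.3% to 14.2% of all genes). The count lower in every pair ranged from 9 to 17 and the count higher in every pair from 0 to 3. Part of this follows from the smaller number of pairs. With equal medians 1 gene was higher in every pair. The median difference of the 58 genes stayed between −0.17 and −0.09 over all alternatives. Another scaling moved the share of all genes with a lower mean from 51.8% to 42.6% (equal medians) or 68.1% (library totals), and that of the 58 genes from 86.2% to 82.8% or 91.4%.

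Of 370 values of the named genes under 15 alternatives, 14 changed sign and 6 passed the adjusted threshold, all without the pair term. With 1 pair left out, the differences ranged from −0.062 to 0.016 for Aldh2, −0.049 to 0.019 for Aldh9a1, −1.27 to 0.015 for Cyp2t4, −0.020 to 0.048 for Ephx1 (−0.0027 without pair 3), −0.12 to 0.56 for Gsta3, −0.063 to 0.032 for Gstm1, −0.011 to 0.13 for Gstm7, −0.25 to 0.28 for Mgst1 and −0.27 to 0.0036 for Sult1a1. With library totals Aldh3a2 was at −0.0065 and Ephx1 at −0.031, and with equal medians Aldh9a1 was at 0.013. The cause was not tested. Genes below about 1 log2 CPM rest on few adjusted counts, down to 0 in 1 library for Cyp2t4.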
